A study of Ovis aries with 36 samples.

Results

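Supraspinatus (SS) is a muscle of the shoulder that stabilises the forelimb, and it is among the slowest and most oxidative muscles of the sheep carcass. The loci described here are the annotated loci whose level was highest in SS, of 9 muscles, in each of 4 lambs. Their Pearson r with the slow-fibre tropomyosin gene TPM3 across samples also had to be below 0.75. There were 22 such loci among 9568 Ensembl loci with a mean count of at least 5, in a series that counts 31136 loci in all. They were chosen by their values in SS, so the difference between SS and the other muscles is a description for them and carries no test. Tests were run on how these loci differed among the 8 other muscles and, over all 9 muscles, among the animals, and on how other loci at the same positions behaved. The choice also read the values of the 8 other muscles, as the levels that SS had to exceed and in the correlation with TPM3, so the test among these muscles is not fully independent of it.

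From each of 4 animals 9 muscles were sequenced by RNA-Seq, which gave 36 samples with n = 4 per muscle. Beside SS these were, in the thigh and rump, Adductor (AD), Rectus femoris (RF), Semitendinosus (ST), Semimembranosus (SM), Gluteus medius (GM) and the cranial part of Gluteobiceps (GB), and, along the loin, Psoas major (PM) and Longissimus lumborum (LL). The animals were unrelated male Poll Dorset cross lambs of 14 months and 67 to 72 kg from different flocks. All 9 muscles came from the same 4 carcasses, no treatment is given in the labels, and SS was the one forelimb muscle. Each sample was taken from the middle of the muscle belly, so it holds muscle fibres together with the vessel, nerve, connective and immune cells between them.

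The files held 3699148 to 6427422 counts per sample, of which 905623 to 1878225 fell on Ensembl loci. The 4 loci with the most counts, none of them with an Ensembl gene, took 65.7 to 78.3% of the counts of a sample. Levels are given as CPM, the counts scaled to a total of 1000000 on Ensembl loci in each sample, so that 1 count was worth 0.532 to 1.104 CPM. The files give no lengths of transcripts, and levels are compared between samples only, never between loci. The files pair no symbols with loci either. Names were taken from the Oar_v3.1 coordinates that the study prints for 39 genes, and 30 of these fell on 1 tested Ensembl locus. Among the 22 loci KCNMA1 could be named in this way, and locus 1 lay at the position of MYL6 together with another Ensembl locus, so that the name could not be assigned. The loci are given by number, in the order of their smallest margin over the next muscle, and by chromosome and position.

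KCNMA1 is the pore-forming subunit of the large-conductance potassium channel that opens with calcium and depolarisation. MYL6 is an essential light chain of myosin in smooth muscle and in cells other than muscle. A skeletal muscle differs from its neighbours through the share of slow and fast fibres, which carry their own isoforms of myosin, troponin and tropomyosin, and through patterning genes that keep a record of where on the body it formed. The limit on the correlation with TPM3 was used to set aside loci that follow slow fibres closely, and it leaves weaker correlations in place.

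The study designed a pair of qRT-PCR primers for MYL6, which are shown because they bear on the position of locus 1, the locus with the largest difference. They are written 5′ to 3′, with no part set in capitals, and which of the loci at the MYL6 position they match was not determined.
MYL6 forward primer: gccaaaacagactccacctc
MYL6 reverse primer: caaagtcatgggagctgagc

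Of the 9568 loci, SS had the highest CPM in all 4 animals at 25, in 3 animals at 201, in 2 animals at 685, in 1 animal at 2180 and in none at 6477. The same count for the other muscles, with no correlation cut, was 49 loci for SM, 20 for PM, 18 for ST, 9 for LL, 4 for GM, 4 for RF, 3 for AD and 0 for GB. Of the 25 loci, 3 were dropped for a Pearson r with TPM3 of at least 0.75, computed over the 36 samples on log2(CPM + 1) centred within each animal. These had r of 0.84, 0.90 and 0.95, and the one with 0.90 was MYOZ2, a protein of the sarcomeric Z-disc found in slow fibres. The highest r among the 22 loci were 0.49, 0.53 and 0.55, so no locus lay near the limit. The r was positive at all 22, with the lowest 0.01 at locus 20. It was computed with the SS samples included, where the rule makes every one of these loci highest. TPM3 was higher there too, at a mean of 549 CPM in SS against 348 in the other 8 muscles. A positive r is therefore partly built into the choice, and a tie to TPM3 beyond that was not tested. The margin was another matter. The 3 smallest margins kept were 0.0018, 0.0030 and 0.0039 on the log2(CPM + 1) scale (loci 22, 21 and 20), and the 3 nearest loci left out fell short in 1 animal by a margin of -0.0021, -0.0086 and -0.0097. Among the loci kept, the lowest mean counts were 8.69, 8.86 and 10.7, and 15 further loci met the rest of the rule with mean counts below 5, the nearest at 4.78, 4 and 3.97.

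How many loci meet the rule depended on what the counts were divided by. With TMM library sizes in place of the total over Ensembl loci 38 loci met it, of which 14 were among the 22, and with the total over all loci 24 met it, of which 11 were among the 22. The loci that met the rule with every divisor tried numbered 8, among them locus 1 at the MYL6 position, loci 2, 3, 8, 9 and 10, and KCNMA1 (locus 13). With another divisor, the loci that no longer met the rule were still highest in SS in at least 2 of the 4 animals. The share of counts on Ensembl loci, the divisor used here, was the highest of the 9 muscles in SS of animal 1 and ranked 3, 8 and 8 in SS of animals 2, 3 and 4. Its part in the choice of loci beyond these counts was not tested.

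Over the 22 loci the mean in SS was 1.42 to 8.03 times the mean of the 8 other muscles, with a median of 1.79. It was more than 2 times at 7 loci, 1.5 to 2 times at 10 and at most 1.5 times at 5. In the model fitted to all samples the log2FC of SS against the mean of the other 8 muscles ranged from 0.51 to 3.29 with a median of 0.86, beside a median of 0.008 over all loci tested, and 7 of the 22 were above 1. In bulk tissue a change in the number of cells of a type and a change in RNA per cell cannot be told apart. The lowest of the 4 SS values lay above all 32 values of the other muscles at 6 of the 22 loci, which were loci 1, 2, 5, 7, 13 and 18. Over the 9568 loci this held for 0.0732%. Such a locus is by necessity highest in SS in every animal, so the rule itself sets these shares apart. At the other 16 loci the SS values of some animals overlapped those of other muscles in other animals.

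**Figure D1:**
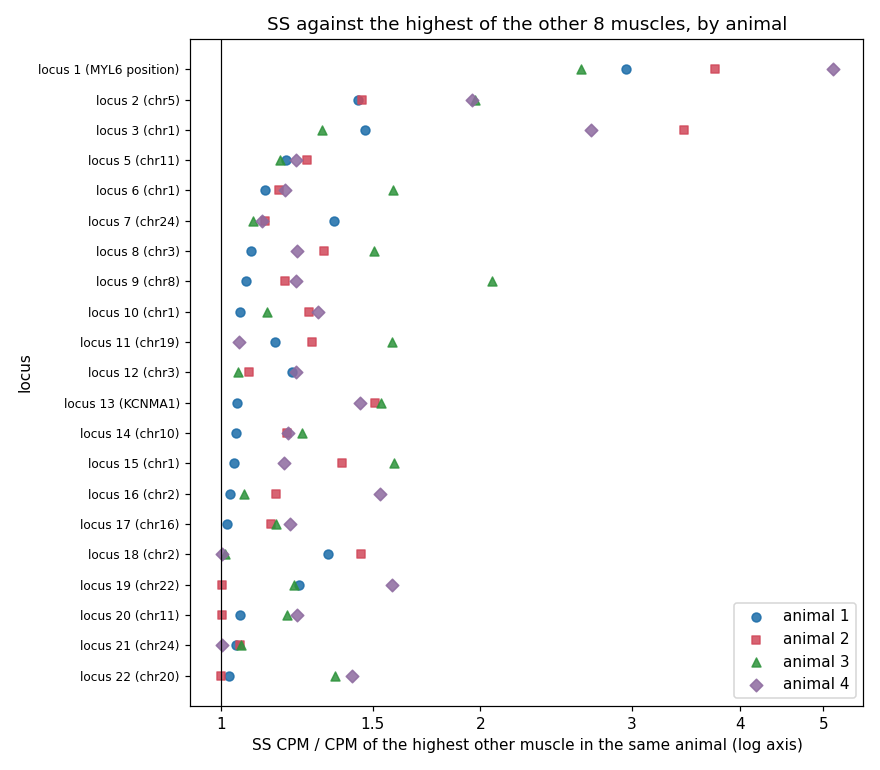
Ratio of the CPM in SS to that of the highest other muscle in the same animal (log axis) for 21 of the 22 loci, 1 point per animal. Locus 1 stands apart with ratios of 2.62 to 5.13, and at loci 18 to 22 the smallest ratio is at most 1.004.

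Within an animal the ratio of SS to the next muscle had a median of 1.21 over the 88 pairs of locus and animal. It was above 1.5 in 19 pairs and under 1.1 in 24. Exact Poisson 95% intervals of the 2 counts, which cover counting error only, were apart in 12 of the 88 pairs. They were apart in all 4 animals at locus 1, in 2 animals at KCNMA1, in 1 animal at loci 3, 8, 9 and 15, and in none at 15 loci. Intervals that overlap do not by themselves show that 2 counts are equal, and no test of the difference was made. The rule chose the loci by this same comparison, so the counts of intervals apart are a description only. The smallest ratio of a locus was in animal 1 at 10 loci, in animal 2 at 4, in animal 3 at 5 and in animal 4 at 3.

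Locus 1 (chr3:163076924-163101778 of Oar_v3.1) had the largest difference by far. Its CPM in SS was 209.8 in animal 1, 244 in animal 2, 391 in animal 3 and 279 in animal 4, a mean of 281 ± 78.7 (SD, n = 4) from 271 to 565 counts per sample. The mean of the other 8 muscles was 35.0 ± 14.6 over the 4 animals, and the highest single value outside SS was 149 in SM of animal 3. All 4 SS samples therefore lay above all 32 others. SM at 73.4 ± 51.1 and GB at 71.6 ± 38.2 came next, AD had 33.8 ± 14.7, GM 26.4 ± 17.7 and LL 23.1 ± 12.04. ST at 17.7 ± 3.31, PM at 17.4 ± 3.63 and RF at 16.6 ± 2.33 were lowest, and neighbours in this order differed by less than the larger of their SDs. GB was the muscle nearest to SS in animals 1 and 2, and SM in animals 3 and 4.

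With SS left out, locus 1 still differed among the 8 other muscles, with an adjusted p of 3.4e-05 in edgeR's quasi-likelihood F test with Benjamini-Hochberg adjustment over all loci. It was higher in SM than in the mean of the 7 others with a log2FC of 1.47 (adjusted p = 2.4e-04) and in GB with a log2FC of 1.24 (adjusted p = 0.00448). In SM the value of animal 3 was far above those of 37.2 to 54.3 in the other animals, and without animal 3 neither muscle passed, at log2FC of 1.12 and 1.03. The difference in GB was also lost without animal 1 or 4. It was lost in the fit without animals as a replicate block, where 1 of the 2 differences remained.

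The other Ensembl locus with the coordinates of locus 1 had a mean count of 174.2 per sample, against 86.97 at locus 1, and was not highest in SS. Its CPM in SS was 105 ± 19.5, against 121 ± 12.6 in the mean of the other 8 muscles, and SS was highest in 0 of 4 animals. Its log2FC in SS was -0.21 with an adjusted p of 0.253, by edgeR's quasi-likelihood test. The muscle with its highest level was PM in animal 1, ST in animal 2 and GM in animals 3 and 4. The position that the study gives for MYL6 falls inside the coordinates that both loci share. In RefSeq's sheep annotation ARS-UI_Ramb_v3.0, another assembly, MYL6 is followed on chromosome 3 by MYL6B, a related light chain, with 326 bases and 0 genes between them. Coordinates alone do not show which of the 2 loci is which gene, and the study's own fold changes for MYL6 were not compared here.

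KCNMA1 (locus 13, chromosome 25, a span of 537 kb from 32.48 Mb) had SS values close to each other. They were 75.1, 95.6, 84.4 and 85.6 CPM in animals 1 to 4, a mean of 85.2 ± 8.38, and all 4 were above the 32 other values, which ended at 71.9 in GB of animal 1. The mean of the other 8 muscles was 47.7 ± 2.40. RF at 59.2 ± 3.38, GB at 58.0 ± 9.73 and PM at 57.9 ± 8.57 were next and did not differ beyond their spread, while LL had 27.99 ± 0.425, with all 4 animals between 27.4 and 28.3. KCNMA1 differed among the 8 other muscles (adjusted p = 6.2e-04), and LL was lower than the mean of the other 7 with a log2FC of -0.70 (adjusted p = 0.00238), which is under the fold threshold. Without animal 1, 3 or 4 the adjusted p among the 8 muscles was 0.0181, 0.011 and 0.0455. KCNMA1 did not pass for a difference among the animals (adjusted p = 0.734). The 2 unannotated loci with its coordinates that were tested had log2FC in SS of 0.48 and 0.69, with adjusted p of 0.495 and 0.207.

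**Figure D2:**
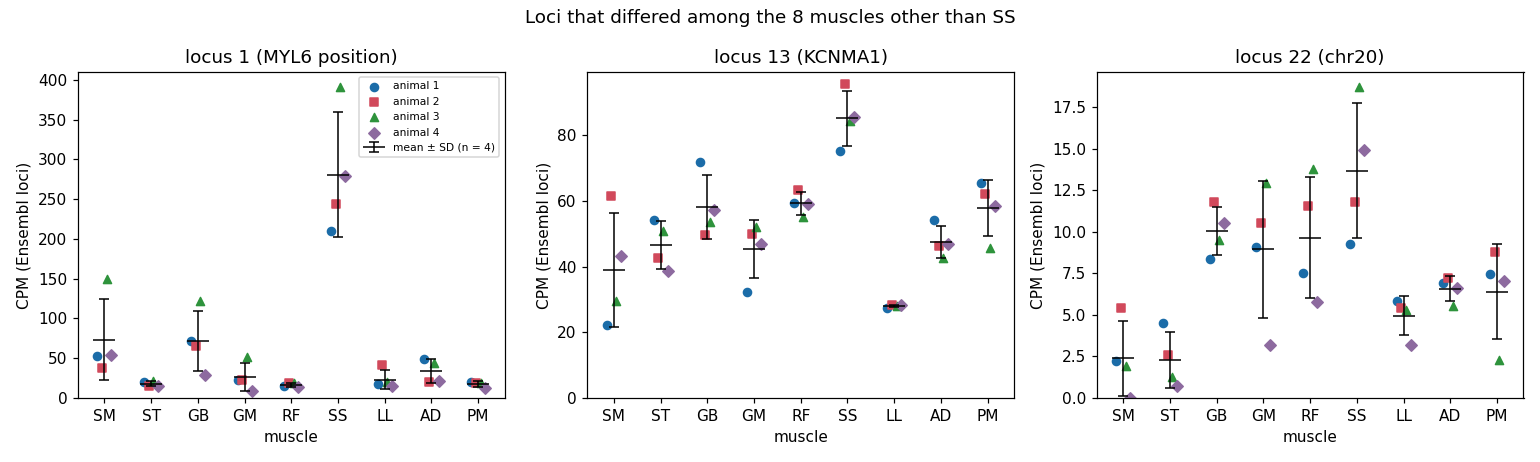
CPM of loci 1, 13 and 22 in each of the 9 muscles, with 1 point per animal and the mean ± SD (n = 4). These 3 loci differed among the 8 muscles other than SS, and LL is the lowest muscle at KCNMA1 with a mean of 27.99.

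The rule with every divisor was also met by 5 loci without a name. Locus 2 (chr5:23029256-23264974) had 10.8, 13.7, 20.8 and 12.6 CPM in SS of animals 1 to 4 and a mean of 4.87 ± 1.08 in the other muscles, from 14 to 30 counts in SS. All SS values were above the 32 others, though barely, since LL of animal 3 reached 10.5. Locus 3 (chr1:190217503-190256072) had 20.9, 32.3, 12.5 and 14.1 CPM in SS, 4.33 times the mean of 4.60 ± 2.45 elsewhere. GB was its next muscle at 8.76 ± 3.90, and LL had 0.932 ± 0.833 with at most 3 counts in any animal.

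The other 3 were counted more deeply and differed less. Locus 8 (chr3:205399378-205457431) had 52.6, 81.3, 85.1 and 65.2 CPM in SS against 39.8 ± 6.19 elsewhere, with AD next at 53.7 ± 6.81. Locus 9 (chr8:21477950-21481985), whose coordinates span 4.04 kb, the shortest of the 22, had 19.4, 31.7, 31.1 and 26.7 CPM in SS against 15.4 ± 2.45. Locus 10 (chr1:201528573-201640443) had 51.1, 72.6, 55.4 and 62.0 CPM in SS against 40.3 ± 4.54, again with AD next, at 47.4 ± 7.505. At all 3 of these loci the lowest SS value was that of animal 1 and overlapped values of other muscles. None of the 5 loci differed among the 8 other muscles at an FDR of 0.01, with adjusted p between 0.0262 and 0.723.

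The other 14 loci met the rule with the Ensembl total and not with all of the other divisors. Their mean in SS was between 13.7 CPM (locus 22) and 170.4 CPM (locus 17). Loci 5 and 7 had the most even SS values of all, from counts at which counting error alone can spread values further. The evenness is therefore no sign of a steadier level. Locus 5 (chr11:60653024-60677347) had 13.9, 13.7, 14.5 and 14.1 CPM in SS of animals 1 to 4, from 18 to 22 counts, and 8.41 ± 0.428 elsewhere. Locus 7 (ENSOARG00000016037, one of 11 Ensembl loci listed at chr24:1041265-1274271) had 24, 24.2, 22.8 and 24.3 CPM against 14.5 ± 1.86. Both kept all SS values above the 32 others, and neither met the rule with TMM library sizes, where SS was highest in 3 animals.

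Locus 22 (ENSOARG00000008093, one of 3 Ensembl loci at chr20:17241764-17280671) had the smallest margin of all. Its CPM in SS was 9.29, 11.8, 18.7 and 14.9, from 12 to 27 counts, and GB of animal 2 reached 11.8 as well, 19 counts in either sample. GB at 10.04 ± 1.45, RF at 9.65 ± 3.66 and GM at 8.93 ± 4.14 were close to the SS mean of 13.7 ± 4.06, while SM at 2.38 ± 2.25 and ST at 2.26 ± 1.69 were lowest. The difference among the 8 muscles passed with an adjusted p of 0.00483, and it was lost without the replicate block (0.0371) and without each animal in turn (0.0147 to 0.086). A second Ensembl locus with its coordinates had 66.4 ± 16.7 CPM in SS against 35.4 ± 5.91, was highest in SS in 3 of 4 animals and had a log2FC of 0.96 with an adjusted p of 8.1e-04, just under the fold threshold.

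Among the remaining loci the ratio of SS to the other muscles was 1.42 to 2.22. Locus 12 (chr3:59917237-59929008) had 66.6, 75.1, 67.1 and 55.7 CPM in SS against 32.3 ± 5.80, with AD at 69.5 in animal 2 and 64.0 in animal 3. Locus 19 (chr22:50692314-50706424) had 17.03, 22.3, 20.1 and 24.3 CPM against 10.7 ± 2.16, with AD at 22.3 in animal 2 a hair under SS. Locus 14 (chr10:21807469-21831130) had 47.2 CPM in SS of animal 1 and 74.6 to 77.0 in the others, against 40.2 ± 7.60. AD was the muscle nearest to SS by mean at all 3.

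By mean level the next muscle was AD at 6 of the 22 loci, GB at 6, RF at 5, GM at 3, SM at 1 and ST at 1, and it was never LL or PM. By animal, over the 88 pairs, it was GB in 19, RF in 19, AD in 16, PM in 13, GM in 8, SM in 7, LL in 3 and ST in 3. At the other end LL had the lowest mean at 8 loci, SM at 6, ST at 6, and GB and RF at 1 each. These counts are descriptions, because the loci share the same 36 samples, and they were not made over all loci. The limit on r with TPM3, which was highest in PM in all 4 animals, also bears on the count for PM. At the loci dropped for r of 0.84 and 0.95, PM was next by mean, at 78.7 and 154 CPM. At MYOZ2, also dropped, it was GB at 157 CPM.

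**Figure D3:**
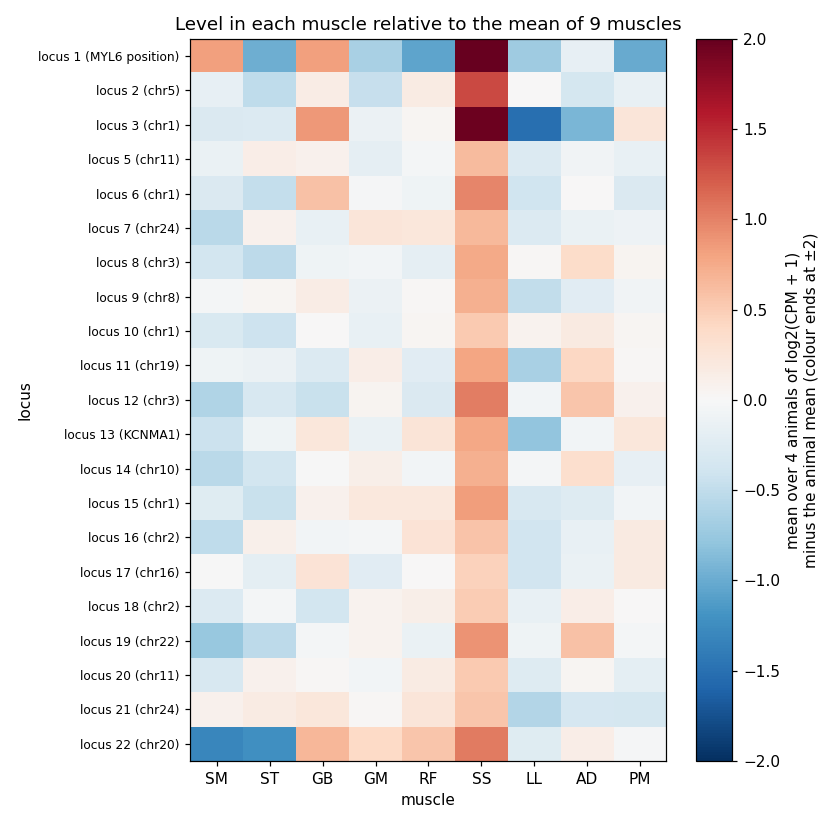
Level of 21 of the 22 loci in the 9 muscles, as log2(CPM + 1) minus the mean of the animal's 9 muscles, averaged over the 4 animals (red above, blue below, colours end at ±2). SS is the highest column in every row by the choice of loci, and LL, SM and ST hold the lowest value in most rows.

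With SS left out, all 22 loci passed the filter on low counts and 4 of them differed among the 8 other muscles (loci 1, 13 and 22 among them). The background was 5.02% of the 12239 loci tested and 5.04% of those with an Ensembl gene and a mean count of at least 5, so 4 of 22 (18.2%) is above the share of all loci, a share for which no test was made. At an unadjusted p under 0.05 there were 16 of the 22 loci, against 29.4% of all loci tested. Between single muscles and the mean of the other 7, only locus 1 was past both thresholds, in SM and GB, where 2.15% of all loci were past them in at least 1 of the 8 muscles.

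Among the 4 animals 5 loci differed over all 9 muscles (loci 1, 3, 11 and 21 among them), where 17% of all loci tested did and 14.1% of those with an Ensembl gene and a mean count of at least 5. The 22.7% of the 22 loci is near this background. If the lanes were filled by animal, a difference among animals cannot be told apart from one among sequencing lanes. Locus 1 was highest in animal 3 with 92.7 CPM against 49.8 to 53.7 in the others (adjusted p = 7.3e-04), and the call was lost without animal 3 (adjusted p = 0.116) and without animal 4 (0.0211).

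At loci 3, 11 and 21 animals 1 and 2 had the higher means. Locus 3 had 8.93 and 8.27 CPM in animals 1 and 2 and 5.07 and 2.95 in animals 3 and 4 (adjusted p = 0.00163). Locus 11 (chr19:48631479-48639977) had 40.5 and 39.6 CPM in animals 1 and 2 and 26.9 and 29.9 in animals 3 and 4 (adjusted p = 0.00305). Locus 21 (chr24:35842525-35848001) had 53.4 and 47.8 CPM in animals 1 and 2 and 34.03 and 36.3 in animals 3 and 4 (adjusted p = 0.00207). Each call was lost without animal 1 (adjusted p = 0.0236, 0.0225 and 0.102), and without some of the others, with the highest values 0.0958 for locus 3 without animal 4, 0.034 for locus 11 without animal 3 and 0.0243 for locus 21 without animal 3. Over the 22 loci the highest animal mean was 1.1 to 3.02 times the lowest, with a median of 1.43.

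**Figure D4:**
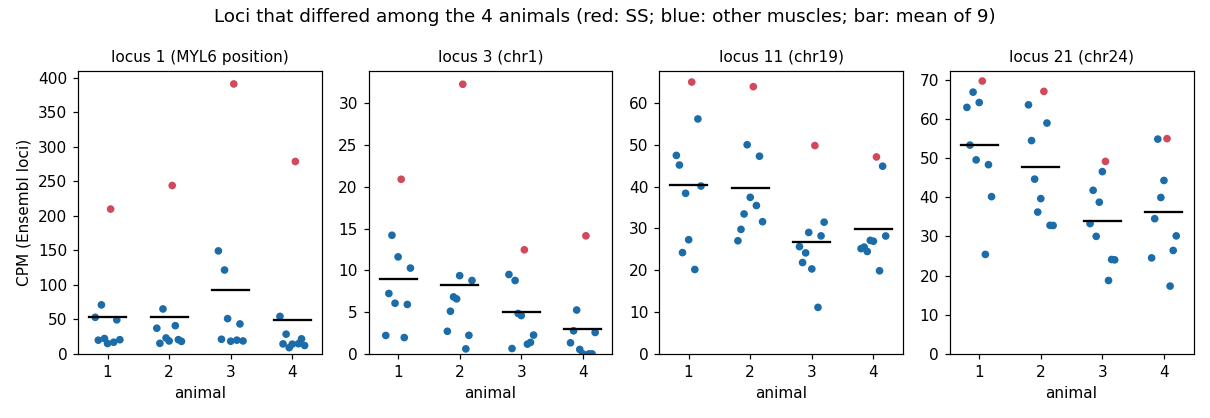
CPM in the 9 muscles of each animal for 4 loci that differed among animals, with SS in red, the other muscles in blue and a bar at the mean of 9. Locus 1 has its highest mean in animal 3 (92.7), and loci 3, 11 and 21 have higher means in animals 1 and 2 than in animals 3 and 4.

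The choice was repeated with 3 animals at a time and the animal left out was then looked at. Without animal 2, 3 or 4 the rule gave 40, 40 and 42 loci, and SS was highest in the animal left out at 22 of them each time, which is 55, 55 and 52.4%. Over all 9568 loci SS was highest in those animals at 13.1, 14.3 and 12.6%. Without animal 1 the rule gave 163 loci and SS was highest in animal 1 at 22 of them (13.5%), where SS of animal 1 was highest at 4.43% of all loci. The 22 are the loci described here in each case, since a locus highest in SS in 3 animals and in the animal left out is highest in all 4. These shares are descriptions and no independent support for the 22 loci. SS was among the top 3 muscles of the animal left out at 62.0% of the loci for animal 1, and at 92.5, 85 and 85.7% for animals 2, 3 and 4, against 21.2, 38.7, 37 and 33.3% of all loci. Animal 1 was therefore the animal that limited the number of loci most.

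Of the 22 loci, 9 shared their coordinates with other loci, since the files give overlapping loci the span of the whole group. There were 18 other Ensembl loci and 6 unannotated loci at these positions, and 10 and 3 of them had enough counts to be tested in SS against the mean of the other 8 muscles. Of the 10 Ensembl loci 0 passed both thresholds by edgeR's quasi-likelihood test and 0 by its likelihood ratio test, and 1 had an unadjusted p under 0.05. That 1 was the partner of locus 22, with a log2FC of 0.96 (adjusted p = 8.1e-04 by the quasi-likelihood test). It passed both thresholds without animal 1 (log2FC 1.14) and with the filter of at least 10 counts in every sample. The log2FC of the 6 tested at the coordinates of locus 7 ran from -0.14 to 0.26, and that of the partner of locus 17 was 0.08. Of all loci tested 1.05% were higher in SS, and 1.99% of the unannotated loci. How reads of overlapping loci were divided by strand is not stated in the sources used here.

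**Figure D5:**
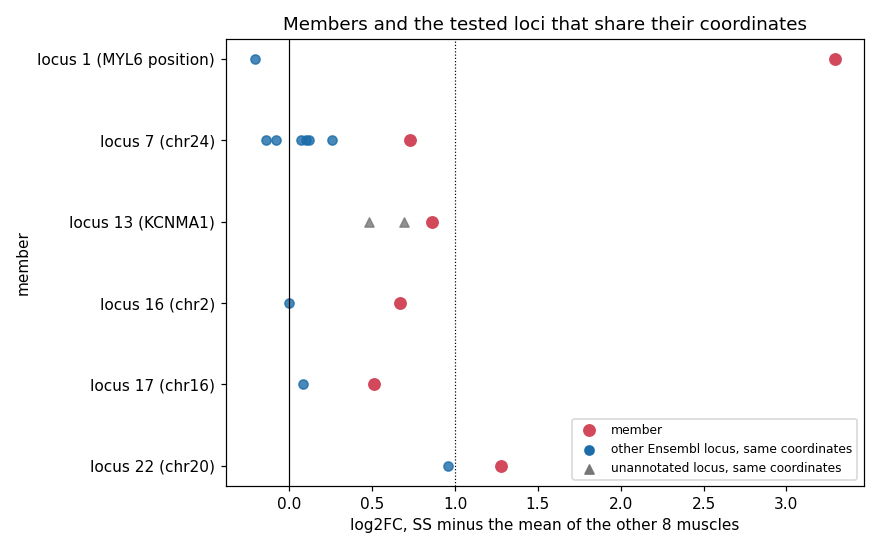
log2FC of SS against the mean of the other 8 muscles for 6 of the 22 loci (red) and for the 12 tested loci that share their coordinates (blue, Ensembl; grey, unannotated), with the fold threshold of 1 as a dotted line. The partner of locus 1 lies at -0.21, that of locus 17 at 0.08 and that of locus 22 at 0.96.

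The 22 loci lay on 13 chromosomes. The Ensembl loci next to them on either side numbered 51, of which 19 had enough counts to be tested, and 0 of these were higher and 0 lower in SS by edgeR's quasi-likelihood test (0 by its likelihood ratio test, and 2 at an unadjusted p under 0.05). Loci 5 and 20 (chr11:60012058-60134340) were 519 kb apart with 7 Ensembl loci between them. Locus 11 lay 225 kb from TNNC1, the slow and cardiac troponin C, with 9 Ensembl loci between. The coordinates of the 22 loci spanned 4.04 to 537 kb with a median of 37.9 kb, near the median of 31.0 kb over the 9568 loci.

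Of 21 genes on a list of slow-fibre and contractile isoforms, 11 could be paired with a locus, and 0 of them are among the 22. Of the 11, 9 were higher in SS than in the mean of the other 8 muscles, and MYL3 (log2FC 0.47, adjusted p = 0.207) and PDLIM1 (log2FC 0.25, adjusted p = 0.633) were not called. The study chose these genes on the same samples for their difference from SS, so the count is not independent evidence of direction. SS was highest in all 4 animals at 1 of the 11, MYOZ2, which the TPM3 limit set aside. TNNC1, the slow troponin C, was highest in PM in all 4 animals although its log2FC in SS was 1.22 (adjusted p = 9.4e-05), and so was TPM3 with a log2FC of 1.03 (adjusted p = 7.7e-05). TNNT1, TNNI1 and ATP2A2, the slow troponins T and I and the slow calcium pump, were highest in PM in animals 1 and 2 and in SS in animals 3 and 4.

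METTL21C, a lysine methyltransferase, had a larger log2FC in SS than any of the 22 loci, 4.51 (adjusted p = 5.2e-13), and an r with TPM3 of 0.30, but LL and not SS was highest in animal 1. EYA1, a transcriptional coactivator of muscle development, had a log2FC of 1.73 (adjusted p = 4.8e-06) and an r of 0.12, and RF was highest in animal 3. Both missed the rule in a single animal. Of 67 loci past the minimum mean count that were called higher in SS, 9 were highest in SS in all 4 animals, 27 in 3, 19 in 2, 8 in 1 and 4 in none. Being highest in every animal and passing the call for the average, which needs a log2FC above 1, were therefore different properties. All of the 22 loci were higher on average, with log2FC of 0.51 to 3.29, and 7 of them were above 1. For these loci that is a description and no test, since this contrast chose them.

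Of 403 genes on 16 lists, 20 could be paired with a locus, and KCNMA1, from a list of signalling genes that includes calcium and ion channels, is among the 22. None of the 55 marker genes of vessel, fibroblast, fat, nerve, immune, blood, smooth muscle and muscle fibre cells could be paired, so the cell makeup of the samples was not checked with them. Outside SS the loci varied together only loosely. Over the 32 samples of the other muscles, centred within animal on log2(CPM + 1), the Pearson r of the 231 pairs of loci had a median of 0.15 and ran from -0.44 to 0.83, against a median of 0.10 over pairs of all 9568 loci, as a description with no test. The highest r joined loci 14 and 19, at both of which AD was the next muscle.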

How the data were processed

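Counts per locus were analysed for all 36 samples, 9 muscles by 4 lambs. According to the study's methods and the submitters' processing notes, the authors mapped their reads with TopHat2 2.0.13 to the build Oar_v3.1, assembled loci with Cufflinks 2.2.1 beside the Ensembl annotation and counted reads per locus with HTSeq, and the deposited counts are whole numbers without normalization. The strand setting of the counting is not given in the sources used here. Coordinates in the files are those of a group of overlapping loci and start from 0, so 1 was added to each start. Loci listed under several Ensembl genes were used once. Depth was 3699148 to 6427422 counts per sample, and counting intervals are exact Poisson 95% intervals, which do not cover amplification error.

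The loci reported were those with a mean count of at least 5 whose CPM (counts over the Ensembl total) was highest in SS in all 4 animals and whose r with TPM3 was below 0.75. These loci and the gene lists were chosen with earlier results of these data known. The tests were edgeR's quasi-likelihood tests (edgeR 4.0.16 in R 4.3.3), with filterByExpr, TMM normalization and muscle and animal as factors, fitted to all loci past the filter, 12239 over the 32 samples without SS and 12461 over all 36. Benjamini-Hochberg adjusted p-values over all loci of a fit were called at an FDR of at most 0.01, with an absolute log2FC above 1 where 1 muscle was compared with a mean of others. A common biological coefficient of variation of 0.195 was estimated. The labels give a muscle code and a number, and this number was read as the animal that pairs the samples. Over 144 pairs of samples with the same number the deviations from the muscle means had a mean correlation of 0.244. Between samples with different numbers it was -0.080. The animals are biological replicates.

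The rule for loci named took the 15 with the largest smallest margin, the 10 with the highest mean in SS, those on a list or named by the study, the 5 with the smallest p among muscles and among animals, and the 3 nearest each limit. Loci past this rule were named where a count of 5 or fewer or a figure asked for them. A gene name was given where at least 95% of the study's interval fell in 1 tested Ensembl locus. Of 39 genes 30 were paired, 7 fell on several loci and 2 on none. Alternatives were DESeq2 1.42.0, the likelihood ratio test, other divisors, filters and thresholds, no replicate block and each animal left out. The procedure was tested on simulated data. The 22 loci enter the counts and ranges, and the values of 1 of them are not reported here. Proteins, promoters and the qRT-PCR values were not used here.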

Additional observations from a re-analysis of the deposited data

Results flagged for a closer look

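In each muscle the 4 values of a locus were looked at for a sample far from the other 3, by the ratio of its gap to the range of the 4 against Dixon's 95% critical value. Of 198 groups of 4 values 16 were past it (8.08%), and chance alone gives about 1 in 20. In SS there were 2. Locus 6 (chromosome 1, 4.70 Mb) had 22.15 CPM in SS of animal 3 against 11.8 to 13.2 in the other animals, and locus 14 had 47.2 in SS of animal 1 against 74.6 to 77.0. In SM of animal 3 locus 1 had 149.2 CPM against 37.2 to 54.3 and locus 3 had 9.50 against 1.33 to 2.71.

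In animal 1 the values were low in SM at locus 12 (7.73 CPM against 27.6 to 30.4) and at locus 17 (99.4 against 128 to 134), in GM and RF at locus 10 (25.3 against 41.5 to 42.8, and 35.5 against 44.6 to 46.2) and in ST at locus 2 (0.904 against 4.25 to 4.83, which is 1 count). They were high in GB at locus 2 (7.52 against 4.96 to 5.25) and in SM at locus 11 (47.5 against 25.2 to 27.1). The remaining samples were GB of animal 2 at locus 11 (33.5 CPM against 24.2 to 24.5), GM of animal 3 at locus 7 (20.98 against 16.46 to 17.18), RF of animal 4 at locus 9 (21.8 against 14.3 to 15.1), PM of animal 3 at locus 15 on chromosome 1 (27.01 against 44.9 to 48.5) and LL of animal 4 at locus 18 on chromosome 2 (14.75 against 24.7 to 26.4). Whether depth or tissue makeup moved with these samples was not tested.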

How the results depend on the processing

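With other divisors 38 (TMM), 37 (RLE) and 24 (total over all loci) loci met the rule, and 14, 14 and 11 of the 22 were among them. It was met by 20 and 15 loci at mean counts of at least 10 and 20, by 22 and 23 at limits on r of 0.6 and 0.9, and by 22 with log2(CPM + 0.25). With 1 animal left out 40 to 163 loci met it. The calls come from a paired fit. Without the replicate block 2 of the 22 differed among the 8 other muscles in place of 4, 1 difference of a single muscle was called in place of 2, and 59 and 30 further loci were higher and lower in SS in place of 124 and 57. With 1 animal left out these counts were 1 to 3, 0 to 2, 37 to 165 and 29 to 56, and 1 to 6 of the 22 differed among animals in place of 5. An FDR of 0.05 gave 4 differences of single muscles and 198 further loci higher in SS. With no filter 284 further loci were higher and 95 lower in SS, and with at least 10 counts in every sample 23 and 18, from 28827 and 5138 further loci tested in place of 12439. Under the other alternatives, which include the likelihood ratio tests of edgeR and DESeq2 and RLE normalization in the fits, counts stayed within 1.5 times. Apart from the fewer samples or loci that some alternatives use, the cause of these changes was not tested. Over the values of single loci no direction was reversed, 29 no longer passed under an alternative and 2 passed that had not. With 14 to 30 counts in SS, as at locus 2, the counting intervals of SS and the next muscle were apart in 0 of 4 animals.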
